A study of Mus musculus with 2 samples.

Results

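The ubiquitin-conjugating enzyme (E2) genes, named Ube2, and the genes of ubiquitin-specific proteases, named Usp, were examined in long-read RNA sequencing of mouse gastrocnemius, the large muscle of the calf. Members were chosen by gene symbol alone, as annotated genes that start with Ube2 and a letter or with Usp and a number, without pseudogenes marked -ps. Of 89 such genes in the annotation, 77 of the 14900 annotated genes with reads were members, 32 of them Ube2 and 45 Usp. Reads of 75 members were found in replicate 1 and of 76 in replicate 2. There was 1 group of 2 libraries, labelled biological replicates 1 and 2, from male B6CASTF1/J mice, the first-generation offspring of C57BL/6J and CAST/EiJ parents, aged 18 to 20 months. The mice carry no engineered allele or treatment in the labels. The RNA input was 2 µg per library, SIRV and ERCC transcripts were spiked in, and the tables summed to 1509380 reads for replicate 1 and 1173233 for replicate 2. The labels name separate biosamples under the same strain donor entry and do not say whether a biosample is 1 mouse or a pool. There was no second condition, so the data show which of these enzymes the muscle transcribes, the forms of each, and the gap between the libraries. Tests on reads compare these libraries only and have no replicate check.

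Ubiquitin reaches its substrates along a relay of enzymes. An activating enzyme (E1) charges ubiquitin with ATP, an E2 takes it over on a cysteine in its active site, and a ligase (E3) brings the charged E2 and the substrate together. Some E2 enzymes carry ubiquitin-like proteins such as NEDD8 or ISG15 instead. Ubiquitin-specific proteases cut ubiquitin off again and form the largest family of deubiquitinases. In skeletal muscle this system feeds the proteasome, which degrades myofibrillar proteins, and it is known for its part in muscle atrophy.

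The exons that distinguished the main isoforms of 4 members are shown first, because the isoform results turn on them. They were read 5′ to 3′ on the strand of the gene from the GENCODE M21 transcripts, which share the mm10 build of the files. Coding bases are in lower case and a stop codon in capitals. The exons of Usp28 lie at chr9:49032509-49032688 (180 nt) and chr9:49033577-49033672 (96 nt), those of Usp47 at chr7:112046927-112046986 and chr7:112080172-112080231 (60 nt each), and that of Usp15 at chr10:123153041-123153127 on the minus strand (87 nt). For Ube2d3 the coding part of a 50-nt exon (chr3:135463721-135463770) and that of the final exon (chr3:135465195-135465240) are given, since each ends the protein in its own way.
Usp28 exon 19: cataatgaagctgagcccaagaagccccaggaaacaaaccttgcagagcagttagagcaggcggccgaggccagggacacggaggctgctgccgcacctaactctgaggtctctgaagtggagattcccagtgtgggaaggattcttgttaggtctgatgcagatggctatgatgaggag
Usp28 exon 20: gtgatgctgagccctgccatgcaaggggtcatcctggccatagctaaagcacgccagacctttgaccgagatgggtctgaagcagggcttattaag
Usp47 exon 2: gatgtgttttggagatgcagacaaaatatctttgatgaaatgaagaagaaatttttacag
Usp47 exon 13: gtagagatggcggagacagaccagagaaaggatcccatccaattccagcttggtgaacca
Usp15 exon: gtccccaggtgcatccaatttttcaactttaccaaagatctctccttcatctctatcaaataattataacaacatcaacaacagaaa
Ube2d3 50-nt exon, coding part: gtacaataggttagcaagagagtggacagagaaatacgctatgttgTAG
Ube2d3 final exon, coding part: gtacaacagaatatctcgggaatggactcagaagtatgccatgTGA

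The exons of Usp28, Usp47 and Usp15 held no stop codon in frame, and their lengths were multiples of 3. Exon numbers count from the start of the most-read transcript model. The Ube2d3 endings had the same base at 31 of the 46 positions that both have, counted from the exon start.

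The Ube2 genes together gave 3894 reads in replicate 1 and 3241 in replicate 2, or 2580 and 2762 CPM (reads of the gene scaled to 1000000 reads in the table), with a mean of 2671 ± 129 (SD, n = 2). The Usp genes gave 3110 and 3754 reads, or 2060 and 3200 CPM, with a mean of 2630 ± 806 (SD, n = 2). A long read stands for 1 cDNA molecule, so levels were not divided by length, although the recovery of a molecule still depends on its length. A few genes supplied most of the reads. The 5 most-read Ube2 genes held 53.5% of the family's reads in replicate 1 and 50.8% in replicate 2, and the 5 most-read Usp genes 59.5% and 64.6%. In whole muscle, fewer cells of a type and less RNA per cell cannot be told apart.

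**Figure D1:**
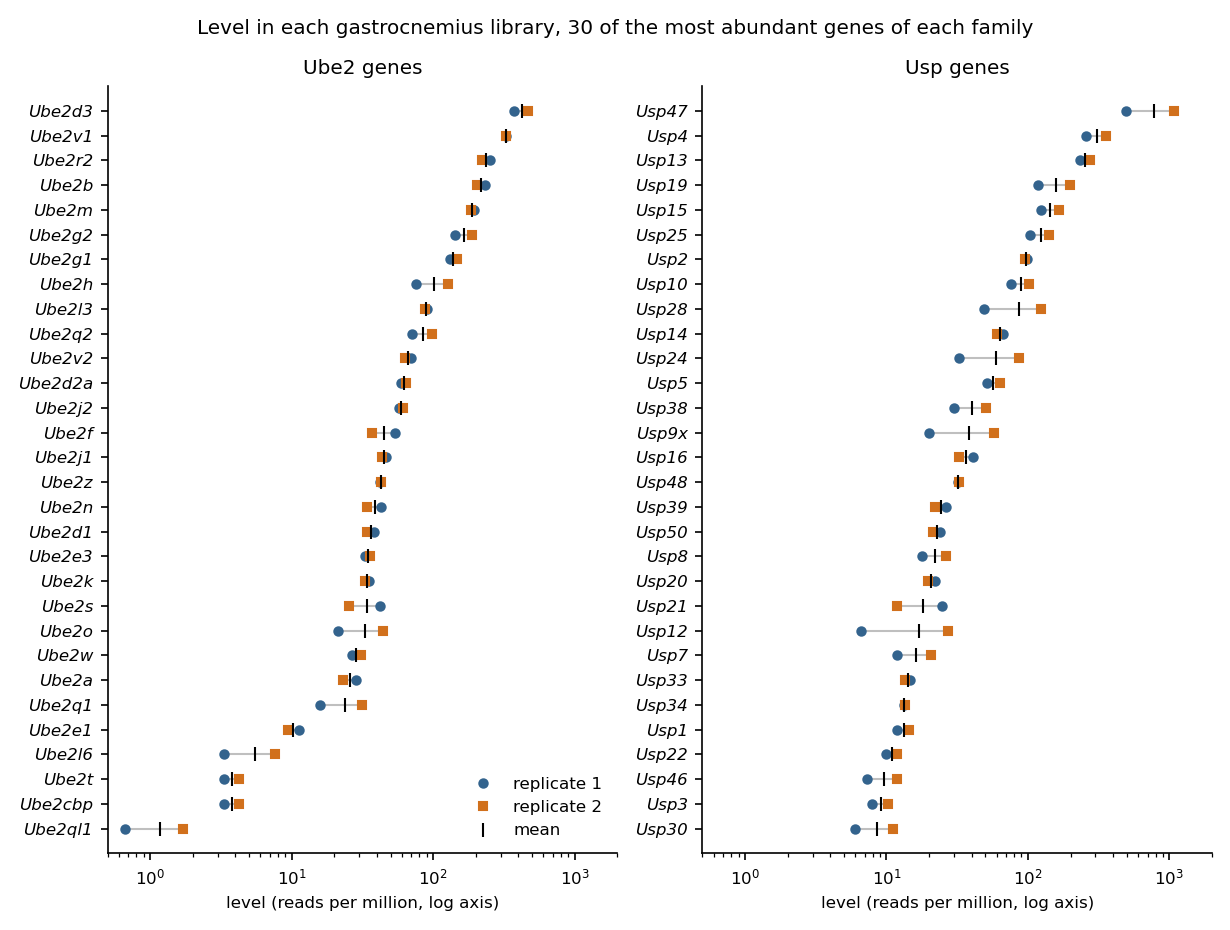
Level of 30 of the most abundant genes of each family in CPM (log axis), with replicate 1 as circles, replicate 2 as squares and the mean as a bar. Ube2d3 and Usp47 lead their families, and Usp47, Usp28, Usp24, Usp9x and Usp12 show wide gaps between the libraries.

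Among the E2 enzymes, Ube2d3 was the most abundant, with 565 reads (374 CPM) in replicate 1 and 550 (469 CPM) in replicate 2. It belongs to the UbcH5 group, which works with many E3 ligases and starts chains on substrates. Its close relatives were lower, with Ube2d2a at 59.6 and 64.8 CPM and Ube2d1 at 38.4 and 34.1 CPM. Near-identical copies can exchange reads, and the excluded pseudogene Ube2d-ps was given 50 and 34 reads. Exchange of reads within this group was not tested, so single Ube2d levels are uncertain to an unknown extent.

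Ube2v1, a variant without the catalytic cysteine, followed with 492 reads (326 CPM) in replicate 1 and 384 (327 CPM) in replicate 2. Ube2v1 and its relative Ube2v2 pair with Ube2n to build ubiquitin chains linked through lysine 63. Ube2v2 was at 69.6 and 63.1 CPM, and Ube2n, the catalytic partner, at 43.1 and 34.1 CPM. In both libraries the variants together outnumbered the reads of Ube2n, with Ube2v1 alone at 492 against 65 reads and at 384 against 40.

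Ube2r2, the Cdc34-like E2 of cullin ligases, was read 381 and 258 times (252 and 220 CPM). Ube2b, the 14-kDa E2 related to yeast Rad6 that has long been studied in muscle wasting, was read 353 and 240 times (234 and 205 CPM). Its twin Ube2a was much lower, with 43 and 27 reads (28.5 and 23.0 CPM). Of the E2 enzymes that act in degradation from the endoplasmic reticulum, Ube2g2 was at 142 and 189 CPM, while the membrane-anchored Ube2j2 and Ube2j1 were at 57.6 and 61.4 CPM and at 46.4 and 43.5 CPM. Ube2g1, an E2 that extends chains on cullin ligase substrates, was at 131 and 147 CPM. Ube2l3, the partner of HECT and RBR ligases such as parkin, was at 90.1 and 87.8 CPM, and Ube2h, the E2 of the CTLH ligase, at 75.5 and 128 CPM.

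The E2 enzymes of other modifiers were present at unequal levels. Ube2m, which carries NEDD8, was read 293 and 216 times (194 and 184 CPM), and the second NEDD8 enzyme Ube2f 81 and 43 times (53.7 and 36.7 CPM). Ube2z, which works with the E1 Uba6, was at 42.4 and 42.6 CPM, whereas Uba6 itself had no read. Ube2l6, the interferon-induced ISG15 enzyme, had 5 and 9 reads.

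Ube2c, the E2 that starts chains for the anaphase-promoting complex, had no read in either library, which allows up to 3 reads, or 1.99 CPM in replicate 1 and 2.56 CPM in replicate 2. Ube2t, the E2 of the Fanconi anaemia pathway, had 5 reads in each library. Ube2s, which extends the chains that Ube2c starts, was read 64 and 30 times, in both libraries more than Ube2a. The list of 4 cycling-cell markers gave 1 read in each library, from Mki67, with Top2a, Ccnb1 and Cdk1 at 0. Ube2cbp, with 5 reads in each library, is caught by the symbol rule but is a Ube2c-binding protein and not an E2.

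Among the proteases, Usp47 stood above all other members. This relative of Usp7, known to deubiquitinate DNA polymerase beta, had 749 reads (496 CPM) in replicate 1 and 1254 (1069 CPM) in replicate 2. It supplied 24.1% and 33.4% of the family's reads, and without it the Usp sum was 1564 and 2131 CPM. Usp7 itself had 18 and 24 reads (11.9 and 20.5 CPM).

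Usp4 was next, with 386 and 421 reads (256 and 359 CPM), and its paralogue Usp15 had 185 and 195 (123 and 166 CPM). Both act on receptors and signalling proteins of the TGF-beta pathway, and the third paralogue, Usp11, had 5 and 2 reads. Usp13, a relative of Usp5 with weak catalytic activity, was at 235 and 274 CPM. Usp5, which takes apart free ubiquitin chains, was lower at 51.0 and 63.1 CPM. In the paralogue pair Usp25 and Usp28, Usp25 had 155 and 167 reads (103 and 142 CPM), and Usp28 had 74 and 145 (49.0 and 124 CPM).

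Usp19, studied in muscle wasting, had 177 and 234 reads (117 and 199 CPM), and Usp2, a clock-controlled protease, had 149 and 111 (98.7 and 94.6 CPM). Usp14, which sits on the proteasome and trims its substrates, was at 66.3 and 60.5 CPM. Usp10, which binds the stress granule protein G3BP, was at 75.5 and 102 CPM. Usp30, which faces parkin on the outer membrane of mitochondria, had only 9 and 13 reads. Usp1, the protease of FANCD2 and PCNA, had 18 and 17 reads, and Usp54 had 2 in each library.

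Of the 12 annotated members without a read, 8 carried Ube2 symbols: Ube2c, Ube2d2b, Ube2d4, Ube2dnl1, Ube2dnl2, Ube2nl, Ube2u and Ube2uos. The other 4 were Usp29, Usp43, Usp44 and Usp51. Ube2d4 and Ube2nl are annotated as pseudogenes and Ube2uos as an antisense RNA. A further 13 members had fewer than 10 reads over both libraries, which left 64 for the comparison between libraries, 30 Ube2 and 34 Usp genes. Usp50 was a special case. All of its 36 and 25 reads were unspliced, and 36 and 22 of them formed a single model of 259 nt inside the gene Usp8 that lies on the opposite strand. No read of Usp50 spanned an intron, and whether these reads stem from Usp50 or Usp8 cannot be told apart here.

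The other enzymes of the relay gave a frame for these levels. Uba1, the main E1, was read 221 and 164 times (146 and 140 CPM), fewer than Ube2d3. None of the 8 tested E1 genes differed between libraries by the call rule given next, and none of the 7 tested E2-like genes, of which Tsg101 was the most read (187 and 152 reads). At an unadjusted p below 0.05 by Fisher's exact test the counts were 0 and 1. Among 10 tested ubiquitin and ubiquitin-like precursors, Ubb was the most read (2886 and 2032 reads, 1912 and 1732 CPM) and Rps27a alone was called, at 137 against 51 reads. Its log2 ratio was -1.05 (adjusted p = 4.54e-05, Fisher's exact test with Benjamini-Hochberg adjustment over all genes). It was not called once genes were centred on others of like transcript length. Of 26 tested deubiquitinases of other families, 6 were called higher in replicate 2 (Cyld, Mindy2, Otud1, Otud7b, Otulin and Vcpip1), beside 8.51% of all genes tested, and only Otud1 and Otulin were still called after the length centring. Bap1 was the most read of these in replicate 1 (144 and 211 reads), and Otud1 in replicate 2 and over both (33 and 636 reads).

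The libraries were compared gene by gene by setting a gene's reads against the rest of the library in Fisher's exact test, two-sided. A gene was called at an adjusted p below 0.05 over 9032 genes and a difference of at least 2-fold in CPM. Log2 ratios put replicate 2 over replicate 1 after adding 1 to each CPM, so they understate the ratio of low genes. Of 64 members, 6 were higher in replicate 2 (9.38%) and none was lower, beside 769 genes higher (8.51%) and 194 lower (2.15%) among all genes tested. The members' share of higher calls was thus near that of all genes. Without the fold minimum, 15 members passed the adjusted threshold, and 23 had an unadjusted p below 0.05. The called members were 1 of 30 Ube2 genes and 5 of 34 Usp genes. The median log2 ratio was 0.05 for Ube2 and 0.43 for Usp genes, beside 0.19 for all genes.

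Usp47 was higher in replicate 2 by 1.11 on the log2 scale (adjusted p = 3.46e-62). Usp28 had 74 and 145 reads, a log2 ratio of 1.32 (adjusted p = 9.34e-10, Fisher's exact test). Usp24, a giant protease of 68 exons, had 49 and 102 reads (32.5 and 86.9 CPM), a log2 ratio of 1.39 (adjusted p = 1.19e-07). Usp9x, another giant protease encoded on the X chromosome, had 30 and 67 reads (19.9 and 57.1 CPM), a log2 ratio of 1.48 (adjusted p = 9.45e-06). Usp12, which needs the cofactors UAF1 and WDR20, had 10 and 32 reads (6.63 and 27.3 CPM) and the largest log2 ratio of the called members, 1.89 (adjusted p = 0.000343). Ube2o, a large enzyme that combines E2 and E3 activity, had 32 and 52 reads (21.2 and 44.3 CPM), a log2 ratio of 1.03 (adjusted p = 0.00694, Fisher's exact test). With TMM scaling or DESeq2 size factors, Usp47 and Ube2o were no longer called. Usp47 had log2 ratios of 0.91 and 0.84, below 2-fold. Ube2o had 0.84 (adjusted p = 0.0448) under TMM and 0.77 under DESeq2 scaling, where its adjusted p of 0.0734 also missed the threshold (exact binomial test, Benjamini-Hochberg adjustment over all genes). The other 4 were still higher, and Usp21 was called lower (37 and 14 reads).

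Several members differed by less than the call rule. Ube2h had a log2 ratio of 0.75 (adjusted p = 0.000277), Usp19 one of 0.76 (adjusted p = 1.71e-06), and Usp4 one of 0.49 (adjusted p = 2.50e-05), all by Fisher's exact test. Others hardly differed in CPM, among them Ube2v1 at 326 and 327, Ube2z at 42.4 and 42.6, Usp2 at 98.7 and 94.6 and Usp48 at 31.8 and 32.4.

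Transcript length moved with these ratios. Replicate 2 held more reads of long transcripts: over all genes the median log2 ratio was -0.21 for most-read annotated transcripts up to 2000 nt, 0.23 from 2000 to 4000 nt, and 0.60 above 4000 nt. Usp genes are long, with 20 of 30 above 4000 nt and none up to 2000 nt, while 11 of 30 Ube2 genes were up to 2000 nt. In the longest class the Usp median was 0.59, beside 0.60 for all genes, and in the shortest the Ube2 median was -0.17, beside -0.21. Across members, the ratio and length had a Spearman correlation of 0.431 (n = 60 genes), and across all genes one of 0.486 (n = 8625). Within each family it was lower, at 0.185 for Ube2 (n = 30) and 0.276 for Usp genes (n = 30). These correlations are across genes of the same libraries, which are not independent replicates. After each gene was centred on the running median of genes of like length, the medians were -0.10 for Ube2 and 0.02 for Usp genes. Only Usp12 was then called (1.40), beside 264 genes higher (3.06%) and 151 lower (1.75%) of 8625. Usp9x, Usp34, Usp37 and Usp50 had no annotated transcript with reads and so no length in this comparison.

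**Figure D2:**
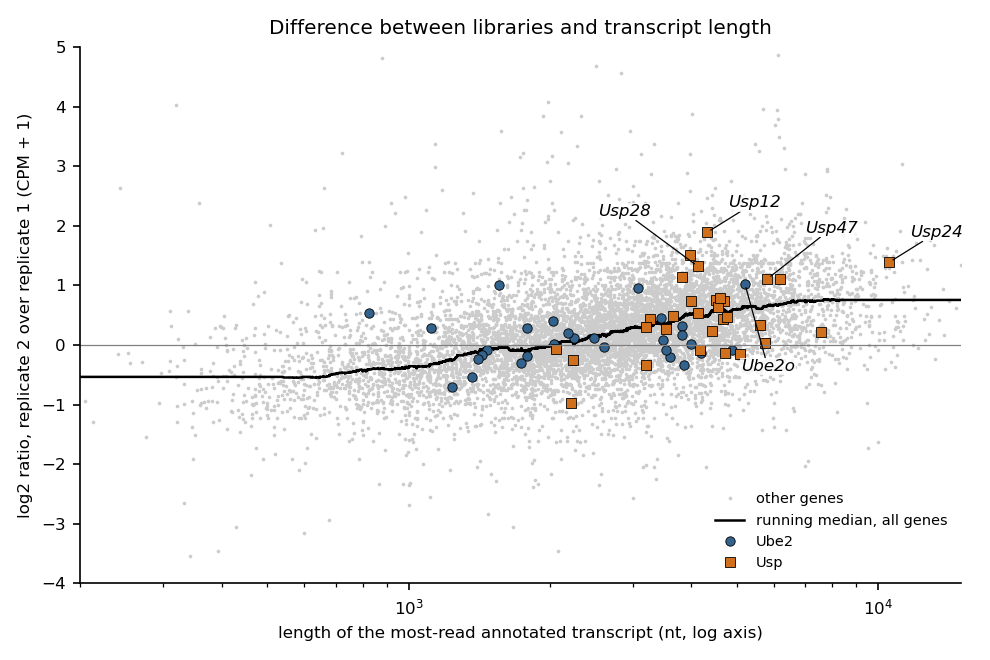
Log2 ratio of replicate 2 over replicate 1 (CPM + 1) against transcript length (nt of the most-read annotated form, log axis) for Ube2 genes (circles), Usp genes (squares) and other genes (grey), with the running median of all genes as a line. The line rises with length, most Usp genes lie at 4000 nt or more, and among the called members Usp12 lies farthest above the line. Usp9x has no length and is not drawn, and 32 other genes lie outside the axes.

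The libraries also differed in cell and fibre markers. Of 10 muscle markers, Myh7 and Tnnt1 of slow fibres and Myh1 and Myh2 of fast fibres were called higher in replicate 2. Myh7 had 119 and 2729 reads and Tnnt1 111 and 827, while the list as a whole summed to 299805 and 312093 CPM. Myh1, Myh2 and Myh7 were still called after length centring, where Tnnt1 had no value. The 6 without a call had log2 ratios of 0.36 (Myh4), 0.21 (Atp2a1), -0.03 (Des), -0.31 (Acta1), -0.40 (Ckm) and -0.75 (Tnnt3). Endothelial markers summed to 45.1 and 110 CPM, with 3 of 6 called higher, and smooth muscle and pericyte markers to 207 and 403 CPM, with 3 of 5 called higher. After length centring, 1 gene of each of these lists was called (Cldn5 and Tagln). Fibroblast markers summed to 652 and 689 CPM with none of 5 called. Schwann cell markers summed to 55.0 and 78.4 CPM, with Mbp called higher, and adipocyte markers to 55.7 and 86.9, with Lep called higher, both also after length centring. Immune markers summed to 75.5 and 48.6 CPM, with Cd74 called lower, though not after length centring. Blood markers summed to 206 and 124 CPM and satellite cell markers to 29.8 and 19.6, with no call. The part of fibre types, other cells and transcript length in the differences of Usp47, Usp28, Usp24, Usp9x, Usp12 and Ube2o was not tested.

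Each read was deposited with a class: annotated transcript, new combination of known splice sites, new splice site, part of a longer transcript, or genomic. The classes do not follow the annotation strictly. In several members, among them Usp25, Ube2g1, Ube2j2 and Usp47, models classed as new combinations in at least 1 library held exons not annotated. Partial reads of Usp25 held such exons too. Annotated transcripts held 78.2% and 79.1% of the Ube2 reads (mean 78.6% ± 0.665, SD, n = 2), but only 55.6% and 54.6% of the Usp reads (55.1% ± 0.656, SD, n = 2), beside 64.2% and 60.8% over all genes. The new-combination class held 12.5% and 13.1% of Ube2 reads and 19.9% and 24.3% of Usp reads, beside 4.19% and 5.10% over all genes. Ube2d3 alone gave 407 of 488 and 359 of 424 such Ube2 reads, so the high Ube2 share rested on this gene. Usp47 gave 406 of 619 and 625 of 913 such Usp reads. Only 268 of 749 and 520 of 1254 Usp47 reads were in annotated transcripts, which lowered the annotated share of the Usp genes. Models with a new splice site were fewer than in all genes, with 109 of 3894 and 98 of 3241 Ube2 reads, and 8.42% and 8.15% of Usp reads beside 18.9% and 22.3%. The gap between the families was larger than the spread between libraries. It was not tested further, since a few abundant genes make up both sums.

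Reads that covered only part of a transcript took a larger share in the longer classes, but not in each gene placed there. Among members whose longest annotated coding transcript is up to 4000 nt, such reads were 4.05% and 3.32% of the total. They were 9.39% and 7.37% between 4000 and 8000 nt, and 27.6% and 26.9% above 8000 nt. That longest class has 6 genes. Its most-read gene, Usp15, is placed there by an annotated form of 11525 nt with 51 and 40 reads. The leading form of Usp15 has 4666 nt and had 89 and 109 reads. Usp15 had only 11 of 185 and 13 of 195 reads of the partial kind. Without Usp15 the share was 67.3% and 47.6%, and without Usp9x 21.5% and 16.6%. Usp9x (11887 nt) had 24 of 30 and 51 of 67 reads in this class, and Usp34 (12200 nt) 17 of 20 and 10 of 16. Neither gene had a read in an annotated full transcript. Usp24 did have reads assigned to an annotated full transcript, of 68 exons, with 17 and 49 reads. Its 10575 nt are the length of the transcript model, and the lengths of single reads were not examined. The isoforms of Usp9x and Usp34 are therefore known only in part from these libraries.

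**Figure D3:**
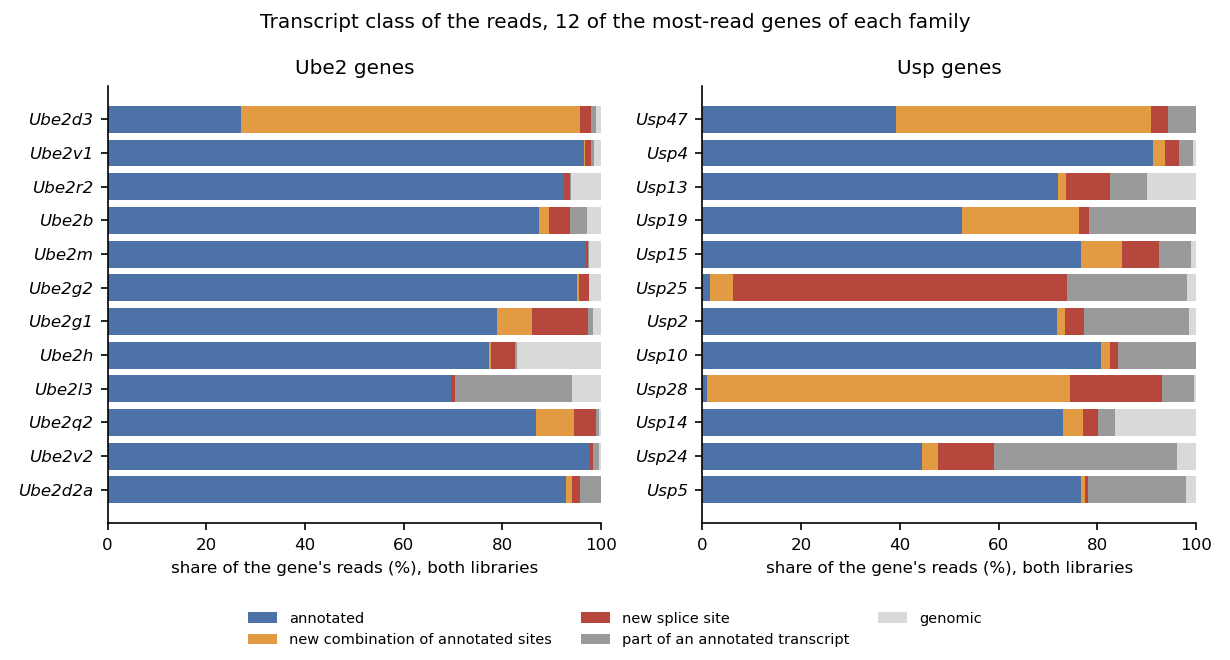
Share of reads (%) in each transcript class for 12 of the most-read genes of each family, both libraries together. The new-combination and partial classes can also hold exons that are not annotated. Most Ube2 genes are largely annotated, while Ube2d3, Usp47, Usp25 and Usp28 are dominated by models that are not in the annotation.

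For each gene with at least 20 reads in both libraries, models were identified by their chain of introns. When truncated and genomic models were left out, the most-read spliced model was not an annotated transcript in 7 of 45 members: Ube2d3 and Ube2j1 of 26 Ube2 genes (7.69%), and Usp25, Usp28, Usp47, Usp48 and Usp9x of 19 Usp genes (26.3%). Over all genes this held for 431 of 4525 (9.52%). In Usp9x the model in question had 0 of 30 and 6 of 67 reads, against 4 and 20 for its leading truncated model. With all models counted, the most-read one took a median of 78.5% of a Ube2 gene's reads and of 58.4% of a Usp gene's reads. It held at least 90% in 9 Ube2 genes and in 1 Usp gene, Usp38. The share of this model did not pass the test between libraries in any of the 45 members, beside 118 of 4535 genes (2.60%). The lowest adjusted p was 0.123, for Ube2d3, and 3 members had an unadjusted p below 0.05 by Fisher's exact test.

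Usp25 was read almost wholly in a form that the annotation lacks. Its most-read model had 26 exons and took 93 of 155 reads in replicate 1 and 102 of 167 in replicate 2. The annotated transcript of 24 exons was read once and 4 times. The model adds 2 adjacent exons, of 114 nt (chr16:77097649-77097762) and 96 nt (chr16:77099651-77099746), that stand in no Usp25 transcript of GENCODE M21. Both lengths are multiples of 3, adding 38 and 32 codons, and both exons lie between annotated coding exons. Of reads that reach across both positions, 138 of 145 in replicate 1 (95.2%, exact 95% binomial interval 90.3 to 98.0) and 155 of 163 in replicate 2 (95.1%, 90.6 to 97.9) held both exons. Reads with neither numbered 1 and 6. A muscle form of Usp25 with added exons is known as background.

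Usp28, the paralogue, also differed from its first annotated transcript by an adjacent pair of exons, numbers 19 and 20 of a 26-exon model. Of reads across both positions, 70 of 74 (94.6%, interval 86.7 to 98.5) and 131 of 142 (92.3%, 86.6 to 96.1) held exons 19 and 20, and none and 2 held neither. The printed exons add 60 and 32 codons, and the second is 96 nt long in both paralogues. Unlike the exons of Usp25, those of Usp28 are in the annotation, but only in a transcript with an incomplete coding sequence, so the full model counted as a new combination, with 38 and 95 reads. The complete annotated 24-exon transcript lacks both. Usp28 had 0 and 2 reads in annotated transcripts of any kind.

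**Figure D4:**
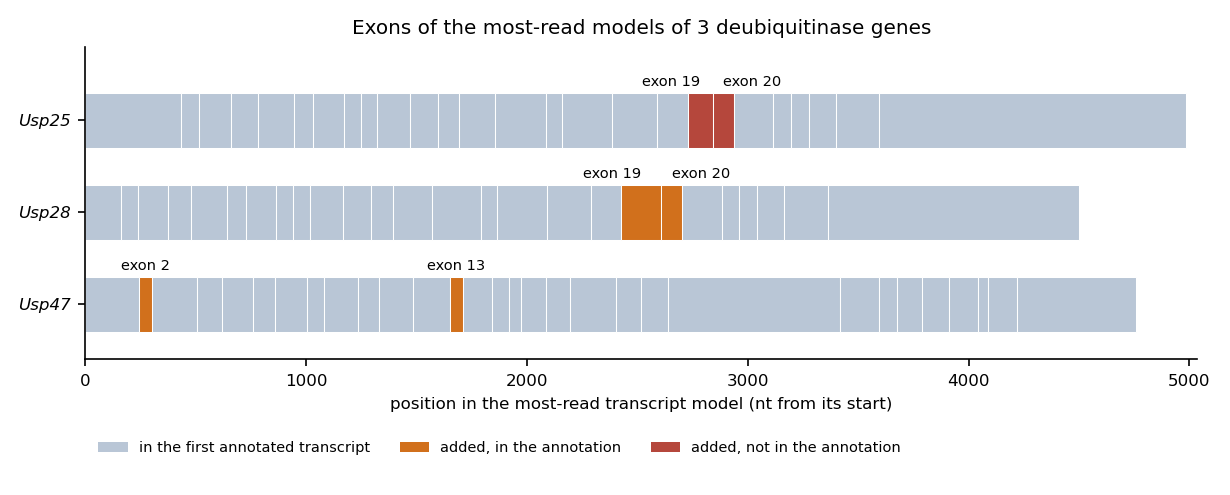
Exons of the most-read models of Usp25, Usp28 and Usp47, drawn to scale by their position in the transcript (nt from the model's start). Coloured exons are absent from the annotated transcript numbered first: exons 19 and 20 in Usp25 and Usp28, and exons 2 and 13 in Usp47, of which only those of Usp25 are missing from the annotation.

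Usp47 was read in 2 main forms that share exon 2 and differ by exon 13. Exon 2 was included in 686 of 701 reads (97.9%) and 1154 of 1195 (96.6%). Exon 13 was included in 424 of 715 reads in replicate 1 (59.3%, interval 55.6 to 62.9) and in 682 of 1222 in replicate 2 (55.8%, 53.0 to 58.6), which did not differ by the exon test (adjusted p = 0.944, Fisher's exact test). Because single reads span both, the combinations could be counted. Both exons stood together in 58.5% and 54.3% of reads, exon 2 alone in 39.4% and 42.1%, exon 13 alone in 1.14% and 1.76%, and neither in 0.999% and 1.67%. The annotation holds each exon singly and neither, but no transcript with both. The most common form in these libraries, with 397 and 615 reads as a complete 30-exon model, is therefore the one it lacks. Each exon adds 20 codons to the 1356 of the form with neither.

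Ube2d3 was divided by its ending. The 50-nt exon printed above holds a stop codon, and the annotated transcript that uses it codes for 148 codons, in place of 147 in those that end in the final exon. It was included in 421 of 550 reads in replicate 1 (76.5%, interval 72.8 to 80.0) and in 363 of 542 in replicate 2 (67.0%, 62.8 to 70.9), a mean of 71.8% ± 6.77 (SD, n = 2). The difference passed the test across all exons (adjusted p = 0.0390, Fisher's exact test) and was the only called exon of 19 tested in 15 members, beside 28 of 2321 over all genes (1.21%). It was no longer called when exons with 5 or more informative reads were also tested. In both libraries most reads carried the 148-codon end. The annotated transcript with this end was read only 8 and 5 times. The exon stood mainly in models of 9 exons that add an annotated exon upstream, with 304 and 249 reads for the first and 86 and 87 for the second, which differ in the donor of the first exon. Over all models, the junction into that upstream exon came from the downstream donor in 75.1% and 71.5% of reads and from the upstream donor in 21.5% and 24.2%.

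In the exons of other members the intervals of the libraries overlapped. In Ube2j1 a 120-nt coding exon (chr4:33045080-33045199) was included in 20 of 60 and 24 of 46 reads (33.3% and 52.2%). The form without it, which is not annotated as a whole, led in replicate 1 with 38 reads. The annotated form with it had 19 there, but led in replicate 2 with 24 reads against 22. In Usp15 the printed 87-nt exon was included in 57 of 172 and 53 of 183 reads (33.1% and 29.0%). It separates annotated proteins of 981 and 952 codons, of which the shorter led with 89 and 109 reads. In Usp48 a 54-nt exon was included in 9 of 46 and 11 of 38 reads.

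The Ube2v partners each had an exon that changes the protein. In Ube2v1 a 119-nt exon (chr2:167629170-167629288) was included in 12.5% and 13.6% of 472 and 374 reads, so that the form of 147 codons prevailed over that of 173. In Ube2v2 a 126-nt coding exon (chr16:15577015-15577140) was skipped in 22 of 104 and 16 of 73 reads, with 145 annotated codons when it is present and 103 when it is absent. In Ube2q2 a 105-nt coding exon (chr9:55168203-55168307) was included in 70.7% and 66.0% of reads, for 378 or 343 codons. Ube2g1 showed 2 rarer insertions, of 116 nt in 6.88% and 11.1% of reads and of 38 nt, absent from the annotation, in 11.4% and 7.78%.

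**Figure D5:**
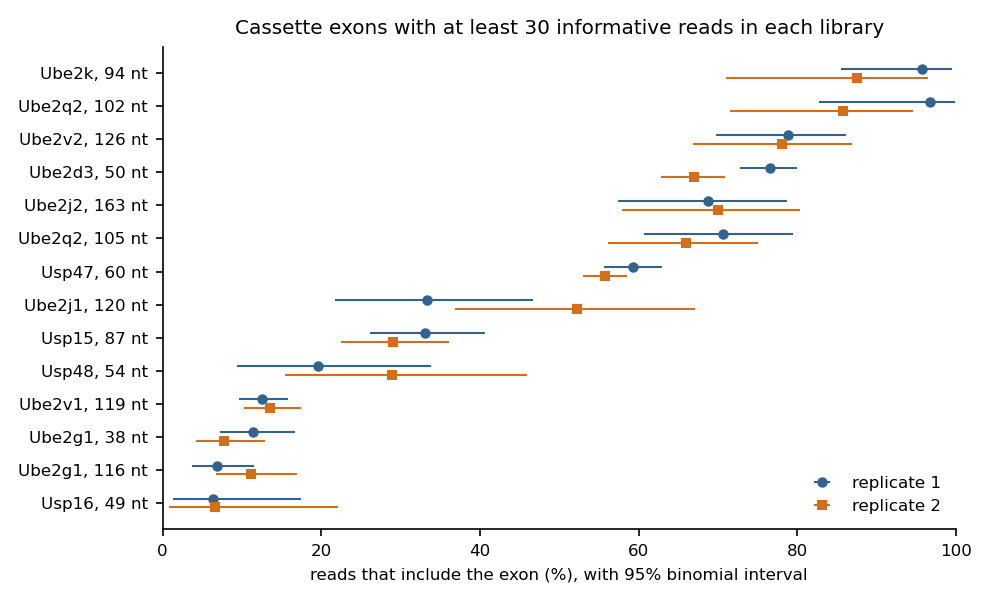
Reads that include each cassette exon (%) in replicate 1 (circles) and replicate 2 (squares), with exact 95% binomial intervals, for exons with at least 30 informative reads in each library. The intervals overlap for every exon drawn except the 50-nt exon of Ube2d3.

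Start sites and small splice shifts made further forms. Usp2 has a long form of 619 codons and a short form of 396 with its own first exon. The junction from that first exon was read 87 and 58 times of 121 and 85 (71.9% and 68.2%), and the junction of the long form 32 and 27 times (26.4% and 31.8%), so the short form led in both libraries. Usp10 was split between acceptors 3 nt apart, with 48 and 43 of 94 and 101 reads at the upstream site (51.1% and 42.6%) and 46 and 57 at the other, for annotated proteins of 793 and 792 codons. Usp19 was the most divided of the abundant members, its leading transcript holding 38 of 177 and 74 of 234 reads (21.5% and 31.6%). At one pair of acceptors the more used site took 89 of 137 reads in replicate 1 and 153 of 202 in replicate 2. At a second pair near the 3′ end of the gene, the more used site took 73.5% and 80.8% of reads and the other 26.5% and 19.2%. Usp13 had one main form of 21 exons and 7580 nt with 256 and 221 reads, and 30 and 29 reads formed a single unspliced model of 4778 nt.

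Among the other E2 genes, Ube2j2 was divided over annotated forms, its leading transcript holding 35.6% and 48.6% of reads, the next 18.4% and 22.2% and another 23.0% and 12.5%. The leading annotated transcript of Ube2o held 16 of 32 and 27 of 52 reads and that of Ube2f 72.8% and 60.5%. Others were read mostly in a single form. Ube2m was read in its annotated transcript in 95.9% and 97.2% of cases, Ube2s in 96.9% and 96.7%, Ube2r2 in 94.0% and 89.5%, and Ube2g2 in 92.6% and 94.1%. Among the Usp genes, Usp38 (91.1% and 94.9%), Usp39 (85.0% and 92.3%) and Usp4 (337 of 386 and 379 of 421 reads) came closest to a single form. These shares are descriptions of 2 libraries, and reads that begin inside a transcript count against the leading form.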

How the data were processed

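The members and lists were chosen with earlier results of these data known. The authors deposited raw read counts per transcript model, 1 table per library, and a matching annotation with exon positions. Per the deposited README files, the counts derive from filtered alignments to mm10 with GENCODE M21. Per the file headers, models carry TALON classes. For the aligner, the platform and software versions, nothing is given in the sources used here.

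Counts were summed per gene over all classes. CPM is the count scaled to 1000000 reads in the table. Shares carry exact 95% Clopper-Pearson intervals, and 0 is read against a floor of 3 reads. Intervals and floors cover counting error only. Genes whose reads in the libraries add to 10 or more were compared by Fisher's exact test with Benjamini-Hochberg adjustment over all genes. The pseudocount was 1 CPM. The most-read model, matched by intron chain, was tested in genes that had 20 or more reads in both libraries. Exon inclusion counted reads with both flanking junctions against reads that join the neighbouring exons, for exons with at least 10 such reads in each library and both forms at 5% or more. Length centring used a running median over 400 genes. The tests were checked on simulated counts that held counting error only. Spread between replicates and the effect of transcript length were not simulated, so the check does not cover them. Members are named if among the 12 most read of their family, called, or on a fixed list; others named (such as Usp34, Usp38, Usp48, Ube2j1 and the few-read genes) were chosen after their values were seen. Values of 1 member are not reported here, while the family sums and counts include it. Protein and genome sequences were not used here, so the added Usp25 exons are given by position only.

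Python 3.11.15, SciPy 1.17.1, pandas 2.3.3, NumPy 2.4.6 and matplotlib 3.10.9 were used, with edgeR 4.0.16 (TMM) and DESeq2 1.42.0 (size factors) in R 4.3.3 for alternative scaling.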

Additional observations from a re-analysis of the deposited data

How the results depend on the processing

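No paired analysis was possible because there is 1 group and no second group to pair it with. The 6 members called higher in replicate 2 became 4 under TMM or DESeq2 scaling, 1 when centred on genes of like length, 10 at a minimum fold of 1.5, 1 at a fold of 4, 3 in annotated transcripts only, and stayed 6 with no read minimum. The count of lower members went from 0 to 1 (Usp21) under TMM and under DESeq2 scaling, and was 0 under the other alternatives. TMM shifted log2 ratios by -0.197 and DESeq2 by -0.270 before the pseudocount, which makes the shift of genes with few reads smaller. The median log2 ratio of Ube2 genes was 0.05, and -0.14 under TMM, -0.22 under DESeq2, -0.10 when centred on length and 0.16 in annotated transcripts only. That of Usp genes was 0.43, and 0.24 under TMM, 0.17 under DESeq2 and 0.02 when centred. In annotated transcripts only, the summed level was 2101 CPM for Ube2 and 1447 CPM for Usp genes. With a single library, the sums ranged from 2580 to 2762 CPM for Ube2 and from 2060 to 3200 CPM for Usp genes, and the annotated share from 78.2% to 79.1% and from 54.6% to 55.6%. Among spliced models the annotated share was 81.6% for Ube2 and 57.6% for Usp genes. No member was called for isoform use under the 4 alternatives tried. The called Ube2d3 exon was lost at a minimum of 5 informative reads, where the count was 0, and called at a minimum of 20 and when any junction spanning the exon counted as skipping, an alternative chosen after seeing the data. Of the called members, 2 lost the call under TMM and 4 when centred on length, where Usp9x had no value; no called member changed sign under these, DESeq2 scaling, a pseudocount of 5 CPM or annotated transcripts only, where Usp28 and Usp9x had no value. The cause of these changes was not tested. Depth limits members with few reads, and 2 libraries give no test of replicate spread.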
